A study of Homo sapiens with 26 samples.

Results

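METTL7A, SEPP1, ADGRL2, MYLK and MUC1 are 5 genes of 19128 in the knockout tables that were chosen by a higher value after guides against POU2F3 in all 4 small cell lung cancer lines tested. POU2F3 is a transcription factor of tuft cells, chemosensory cells of the epithelium, and is expressed in a subset of small cell lung cancers. All 5 genes passed the filter on low values (4 or more of the 8 columns at 1 FPKM or above, FPKM being fragments per kilobase of transcript, scaled to the mapped fragments of the library), which left 12387 genes. The knockout values below chose the genes, so they are a description and carry no test.

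The study sequenced polyA RNA from 26 libraries of human small cell lung cancer cell lines, established cultures from tumours. NCI-H211 and NCI-H1048 were harvested on day 4, and COR-L311 and NCI-H526 on day 5, after lentiviral infection with a control guide RNA (sgNeg, 1 library per line) or with 1 of 2 guides against POU2F3 (sgPOU2F3, 2 libraries per line). The authors deposited the 2 sgPOU2F3 libraries of a line as 1 combined column, so a single line has 1 value per arm and no error, and the line is the replicate. Another 14 libraries came from uninfected parental lines in exponential growth, 1 library per line: the same 4 lines, and DMS114, DMS79, NCI-H128, NCI-H146, NCI-H446, NCI-H510, NCI-H524, NCI-H69, NCI-H82 and NCI-H889. NCI-H1048 grew in HITES medium, NCI-H128 in RPMI with serum, and the labels give RPMI with serum or HITES for the rest. The labels do not say whether infected cells were selected or cloned.

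The genes belong to different pathways. METTL7A (current symbol TMT1A) encodes a methyltransferase of the endoplasmic reticulum membrane and lipid droplets that methylates thiol groups. SEPP1 (current symbol SELENOP) encodes a secreted selenoprotein, made mainly by the liver, that carries selenium to other tissues. ADGRL2 encodes latrophilin 2, an adhesion G protein-coupled receptor that binds teneurins and FLRT proteins on neighbouring cells. MYLK encodes myosin light chain kinase, which phosphorylates the regulatory light chain of myosin and starts contraction of actomyosin. MUC1 encodes a transmembrane mucin on the apical face of secretory epithelium, including that of the airway.

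On GRCh38 (GENCODE release 29), METTL7A lies at chr12:50923472-50932517 on the plus strand, SEPP1 at chr5:42799880-42887392 on the minus strand, ADGRL2 at chr1:81306160-81992436 on the plus strand, MYLK at chr3:123610049-123884331 on the minus strand and MUC1 at chr1:155185824-155192916 on the minus strand. The tables were made on hg19, and these positions were not used to compute any expression value. The windows below, from 250 bases before to 50 bases after an annotated start (RefSeq, GRCh38.p14), are shown because the genes were higher together, to let a reader see which letters they share. All 5 genes were matched, with 13 windows, 8 of them for ADGRL2, which are not printed. The window of METTL7A is chr12:50924765-50925064, plus strand; of SEPP1, chr5:42811843-42812142, minus strand; of MYLK, chr3:123620499-123620798, minus strand; of MUC1 (the first of 2 that overlap), chr1:155192866-155193165, minus strand. Each is written 5′ to 3′ on the strand of the gene, and capitals mark matches to any of 6 motifs.
METTL7A: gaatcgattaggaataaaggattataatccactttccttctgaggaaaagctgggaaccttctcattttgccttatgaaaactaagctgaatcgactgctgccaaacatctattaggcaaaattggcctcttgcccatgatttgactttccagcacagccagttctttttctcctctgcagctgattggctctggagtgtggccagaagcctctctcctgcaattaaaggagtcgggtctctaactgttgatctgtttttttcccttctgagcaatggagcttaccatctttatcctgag
SEPP1: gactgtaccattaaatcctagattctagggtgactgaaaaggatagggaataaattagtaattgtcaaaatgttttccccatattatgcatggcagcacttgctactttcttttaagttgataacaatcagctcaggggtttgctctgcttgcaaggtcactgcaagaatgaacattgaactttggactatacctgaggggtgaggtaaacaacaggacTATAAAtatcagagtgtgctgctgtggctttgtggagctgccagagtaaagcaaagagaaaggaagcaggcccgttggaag
MYLK: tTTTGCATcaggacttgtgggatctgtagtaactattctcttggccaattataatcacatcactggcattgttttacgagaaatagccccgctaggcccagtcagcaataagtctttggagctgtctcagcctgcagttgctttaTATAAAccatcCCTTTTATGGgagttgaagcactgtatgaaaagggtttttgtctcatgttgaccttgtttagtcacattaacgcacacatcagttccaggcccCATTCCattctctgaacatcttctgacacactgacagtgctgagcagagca
MUC1: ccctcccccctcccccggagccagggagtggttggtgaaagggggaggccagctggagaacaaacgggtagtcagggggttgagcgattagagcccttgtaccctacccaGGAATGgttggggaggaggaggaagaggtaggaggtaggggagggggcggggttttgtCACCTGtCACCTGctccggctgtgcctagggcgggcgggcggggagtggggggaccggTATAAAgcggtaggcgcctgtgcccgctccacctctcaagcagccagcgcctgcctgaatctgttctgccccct

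The octamer ATGCAAAT, the letters that POU2F factors bind, was found on either strand in 0 of the 13 windows, against 1.77% of 35116 windows of the same length in the RefSeq table. Its first 7 letters, ATGCAAA, were found in 1 window, that of MYLK, where they lie on the opposite strand (4.46% of all windows). TATAAA on the strand of the gene was found in SEPP1, MYLK and MUC1 (7.33% of all windows), 31, 105 and 24 bases before the start. GGAATG on either strand, the core letters of TEAD sites, was found in MYLK, MUC1 and 1 window of ADGRL2 (14%). CAGGTG, an E-box, was found in MUC1 and 1 window of ADGRL2 (20.6%). All these shares are per window and not per gene, and ADGRL2 had 8 windows, so no enrichment can be read from them. The MYLK window also holds a CArG box (1.29%; searched on the strand of the gene), the element bound by serum response factor, 94 bases before the start. That start lies 263783 bases inside the MYLK gene as GENCODE draws it, in the part that gives the short telokin transcript. The starts used for SEPP1 and METTL7A lie 75500 and 1543 bases inside their genes, and those of ADGRL2 up to 497113 bases. The deposited values are per gene and do not tell starts apart. The printed METTL7A window held none of the 6 motifs. A match is only letters in a window, and the absence of one says nothing about binding elsewhere.

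The targeted gene was lower in all 4 lines. After sgPOU2F3, NCI-H211 kept 6.95% of its control level of POU2F3 RNA (21.3 FPKM left), NCI-H1048 30.7% (60.8 FPKM), NCI-H526 40.7% (204 FPKM) and COR-L311 80.4% (218 FPKM). RNA can persist where a guide disrupts the protein, which was not measured here. The tables give no counts. Depth, estimated from the smallest steps of FPKM in genes with 1 transcript, was 9.48 to 15 M fragments (M, mega) in the sgNeg columns, 18.1 to 29.6 M in the combined columns and 9.71 to 30.8 M in the parental columns. The p-values measure the spread between lines, and nothing in the labels gives repeat infections of a line. In bulk RNA, a change in how many cells express a gene and a change of RNA per cell cannot be told apart.

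METTL7A was low in every control column and several-fold higher after sgPOU2F3. It stood at 1.68 FPKM in sgNeg and 7.25 in sgPOU2F3 in COR-L311, at 2.48 and 6.85 in NCI-H1048, at 0.241 and 1.60 in NCI-H211, and at 1.31 and 12.8 in NCI-H526. Each sgPOU2F3 value lay above the sgNeg value of its own line, while the arms overlapped across lines. The fold was 2.76 in NCI-H1048, 4.33 in COR-L311, 6.61 in NCI-H211 and 9.74 in NCI-H526. On the log2(FPKM + 1) scale, which understates the change of low genes, the mean ratio was 1.61 ± 0.69 (SD, n = 4 lines), between 1.06 in NCI-H211 and 2.58 in NCI-H526. The NCI-H211 control value corresponds to an estimated 1.41 to 9.32 fragments, depending on the annotated transcript taken, so the fold in that line is imprecise.

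SEPP1 was high in 2 of the lines and low in the others in both arms. NCI-H211 went from 20.2 FPKM in sgNeg to 42.1 in sgPOU2F3, and NCI-H526 from 16.5 to 41.5. NCI-H1048 went from 3.51 to 8.78 FPKM. COR-L311, where the gene was near 0, went from 0.273 to 6.77 FPKM. The 3 lines with measurable control levels had folds of 2.08 to 2.52, and COR-L311 one of 24.8, over a control value worth an estimated 2.34 to 6.68 fragments. The mean log2 ratio was 1.51 ± 0.74 (SD, n = 4 lines), with 2.61 in COR-L311 and 1.02 to 1.28 in the other lines. CCDC152, on the opposite strand, shares 25.5% of the annotated exon bases of SEPP1, and the labels do not state that strand was kept. CCDC152 was at most 0.401 FPKM in the 8 knockout columns.

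ADGRL2 was highest in NCI-H211 in both arms. The sgNeg and sgPOU2F3 values were 5.71 and 20.8 FPKM there, 2.22 and 4.85 in NCI-H1048, 1.498 and 4.46 in NCI-H526, and 0.579 and 2.30 in COR-L311. The folds were 2.18 to 3.96. The mean log2 ratio was 1.19 ± 0.36 (SD, n = 4 lines), the smallest SD of the 5 genes. The order of the lines was the same in both arms.

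MYLK was low throughout, with sgNeg values of 0.530 to 2.39 FPKM. The sgNeg and sgPOU2F3 values were 2.39 and 6.94 FPKM in COR-L311, 1.047 and 4.54 in NCI-H211, 0.898 and 4.02 in NCI-H526, and 0.530 and 1.09 in NCI-H1048. COR-L311 held the highest level in both arms and NCI-H1048 the lowest. The mean log2 ratio was 1.13 ± 0.46 (SD, n = 4 lines), with 0.45 in NCI-H1048, the smallest ratio of any of the 5 genes in any line, and 1.23 to 1.44 in the other lines.

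MUC1 reached the highest level of the 5 genes, in NCI-H526, and was low in NCI-H211. NCI-H526 went from 42.9 to 92.5 FPKM, COR-L311 from 16.7 to 32.5, NCI-H1048 from 9.03 to 15.1 and NCI-H211 from 0.599 to 4.46. The order of the lines was kept from sgNeg to sgPOU2F3, and the line with the least MUC1 had the largest fold, 7.45, against 1.67 to 2.16 in the others. In that line the control value is worth an estimated 2.93 to 23.7 fragments. The mean log2 ratio was 1.12 ± 0.47 (SD, n = 4 lines), from 0.68 in NCI-H1048 to 1.77 in NCI-H211.

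**Figure D1:**
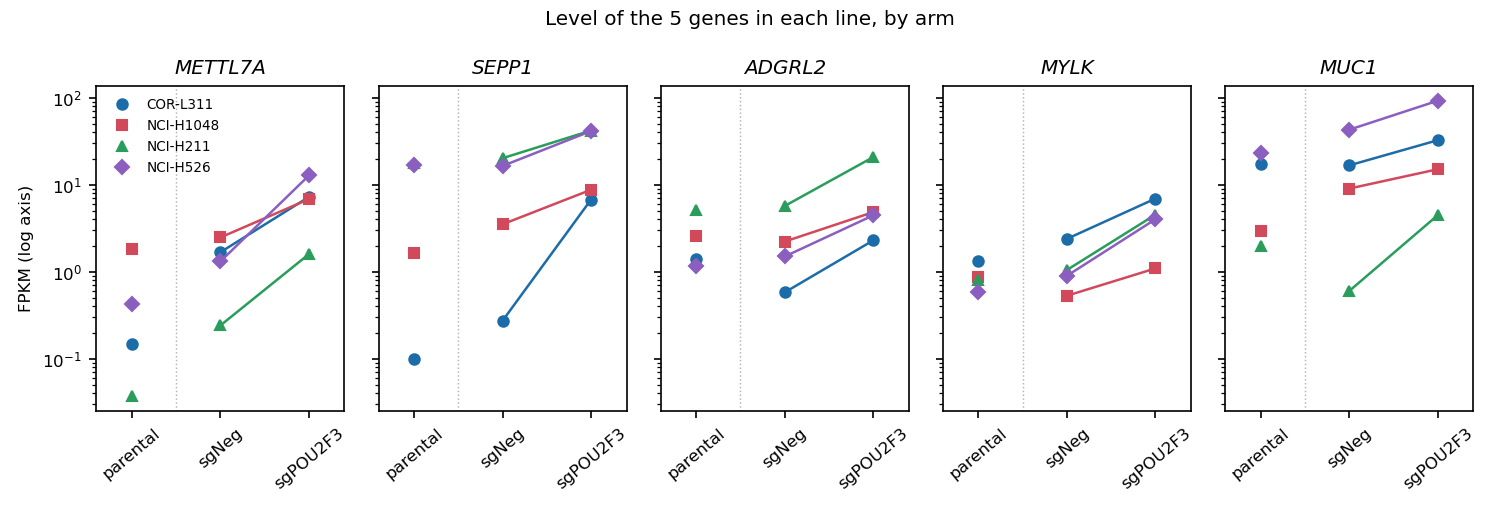
FPKM (log axis) of the 5 genes in parental cells, sgNeg and sgPOU2F3, 1 point per line and lines joining the 2 arms of a knockout table; parental values left of the dotted line come from a separate table. Every line slopes up, and COR-L311 SEPP1 has the steepest slope, from 0.273 to 6.77 FPKM.

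**Figure D2:**
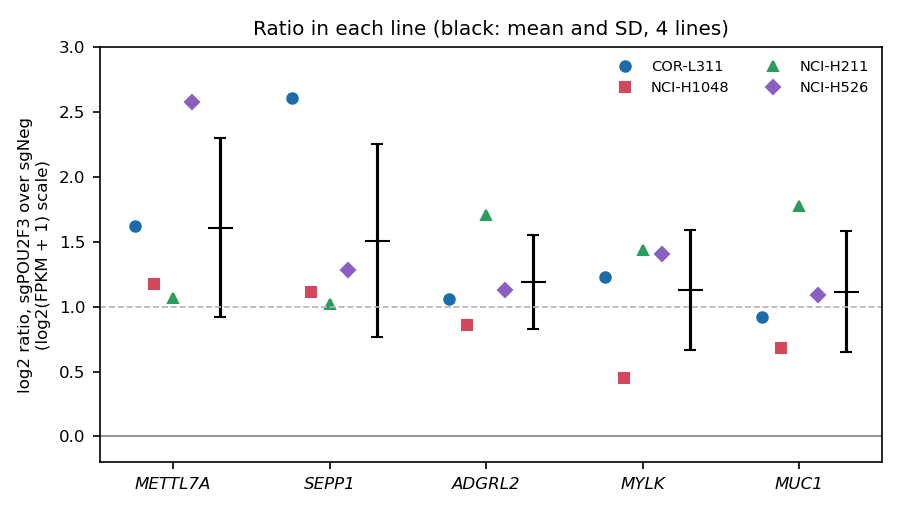
Log2 ratio of sgPOU2F3 over sgNeg on the log2(FPKM + 1) scale for the 5 genes in 4 lines, with the mean and SD over lines in black and a dashed line at a ratio of 1. All 20 points lie above 0 and 16 at or above 1, and NCI-H1048 has the lowest point for ADGRL2, MYLK and MUC1.

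Set side by side, the genes did not follow 1 order of lines. Of the 20 ratios, 16 were at least 1 on the log2 scale: 5 of 5 genes in NCI-H211 and in NCI-H526, 4 of 5 in COR-L311 and 2 of 5 in NCI-H1048. The largest ratio was that of MUC1 in NCI-H211, of METTL7A in NCI-H526 and in NCI-H1048, and of SEPP1 in COR-L311. The median over the 5 genes was 1.44 in NCI-H211, 1.28 in NCI-H526, 1.23 in COR-L311 and 0.86 in NCI-H1048, where the median of all genes tested lay between -0.03 and 0.00. The POU2F3 RNA left was 6.95% of control in NCI-H211, 40.7% in NCI-H526, 80.4% in COR-L311 and 30.7% in NCI-H1048. Its relation to these medians was not tested. Differences between lines were not tested, and line and harvest day cannot be told apart.

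Being higher in 4 of 4 lines was itself not rare: 9.81% of the 12387 genes were. A ratio of at least 1 in every line was found for 5 genes (0.0404%), KRT19, BARX2, BMF, METTL7A and SEPP1. Ranked by the smallest of the 4 ratios, METTL7A was 4th and SEPP1 5th, ADGRL2 9th with 0.86, MUC1 15th with 0.68 and MYLK 36th with 0.45. Among genes outside the 5, large values of the smallest ratio were those of KRT19 (1.73), BARX2 (1.32), BMF (1.11) and COLCA1 (0.98). The same columns gave the ranks and the choice of the genes, so the ranks support nothing. In limma's test across all genes, 2 genes, KRT19 and BMF, passed a Benjamini-Hochberg adjusted p of 0.05 (0.0161%). The same contrast chose the 5 genes, so it gives no test of them.

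**Figure D3:**
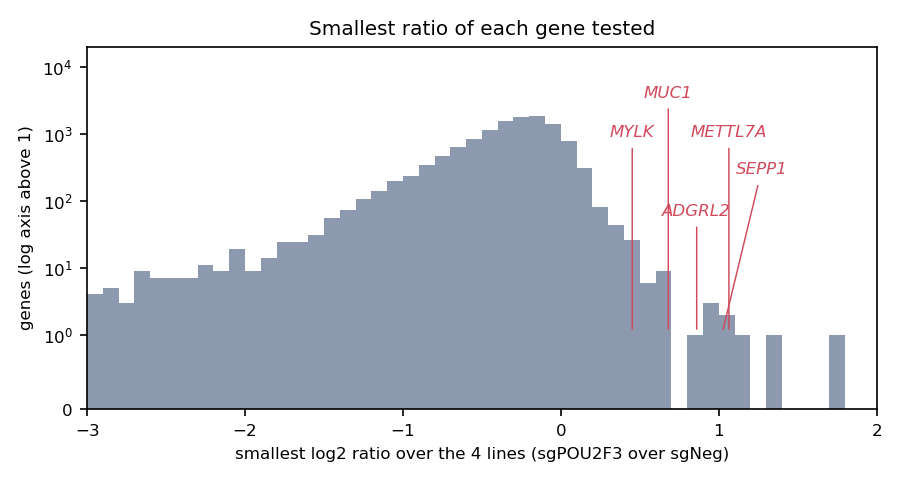
Number of genes tested (log axis above 1) by the smallest of their 4 log2 ratios, shown from -3 to 2, with the 5 genes marked in red. They lie in the right tail, at 0.45 (MYLK) to 1.06 (METTL7A), as their choice implies.

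The parental libraries took no part in the choice and allow a test: the 4 lines that express POU2F3 (189 to 387 FPKM, against at most 0.608 in the other lines) against the 10 others. With limma over 13226 genes, 0 of the 5 genes passed, where 0.0378% of genes passed as lower and 0.212% as higher in the 4 lines. The 4 and the 10 lines overlapped for all 5 genes, as for all but 0.65% of genes tested. Each line has 1 library, so neighbours in the orders below have no spread to be told apart by.

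METTL7A was low in the 4 lines, at 0.0371 FPKM in NCI-H211, 0.146 in COR-L311, 0.430 in NCI-H526 and 1.82 in NCI-H1048. In the others it ran from 32.1 FPKM in NCI-H69 through 20.0 in NCI-H128, 19.7 in NCI-H889, 14.6 in NCI-H510, 14.4 in NCI-H446, 11.5 in DMS79, 7.997 in NCI-H146 and 4.02 in NCI-H82 to 1.502 in NCI-H524, and it was listed at 0 in DMS114. Thus 8 of the 10 others lay above the highest of the 4 lines. The log2 difference was -2.65 (SE 0.75, limma adjusted p = 0.21). Without DMS114 it was -3.01 (SE 0.59, limma adjusted p = 0.037), so the call depends on this 1 library. In that fit 0.137% of 13112 genes passed as lower, against 0.0378% with DMS114. DMS114 was the only one of the 10 other lines that was left out. Over the 11 alternatives the limma adjusted p ran from 0.037 to 0.47. After sgPOU2F3 the level in the 4 lines was 1.60 to 12.8 FPKM, beside a median of 12.9 in the 10 other parental lines, in another table.

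ADGRL2 was at 1.16 to 5.15 FPKM in the 4 lines (median 1.99). Across the others its lowest value was 0.633 in NCI-H69, its median 7.71 and its highest 80.2 in DMS114, followed by 46.3 in NCI-H446, and 6 of 10 lay above all 4 lines. The log2 difference, -1.65 (SE 0.79), did not pass (limma adjusted p = 0.59). MYLK was at 0.590 to 1.34 FPKM in the 4 lines (median 0.840), and at 0.604 in NCI-H82 to 12.5 in NCI-H146 in the others (median 2.12), of which 7 lay above all 4 lines. Its difference was -0.90 (SE 0.51, limma adjusted p = 0.67).

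SEPP1 went the other way. NCI-H211 (17.7 FPKM) and NCI-H526 (16.7) held the highest values of all 14 lines, NCI-H1048 had 1.66 and COR-L311 0.0992. DMS79 (11.3), NCI-H510 (5.95), NCI-H889 (3.08) and NCI-H146 (1.71) came next among the others, and it was listed at 0 in NCI-H128 and NCI-H524. The overlapping CCDC152 stood at 12.7 FPKM in NCI-H889, 10.3 in NCI-H146 and 8.08 in NCI-H446, above SEPP1 in each, and at most 0.344 in the other parental lines, so SEPP1 values in those 3 lines are uncertain. The difference of 1.41 (SE 0.83) did not pass (limma adjusted p = 0.68) and lay between 0.83 and 2.33 under the alternatives. MUC1 showed a difference of -0.02 (SE 0.88, limma adjusted p = 0.998). It ranged from 1.97 FPKM in NCI-H211 to 23.0 in NCI-H526 within the 4 lines, and from 0.733 in NCI-H82 to 34.0 in DMS79 within the 10.

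**Figure D4:**
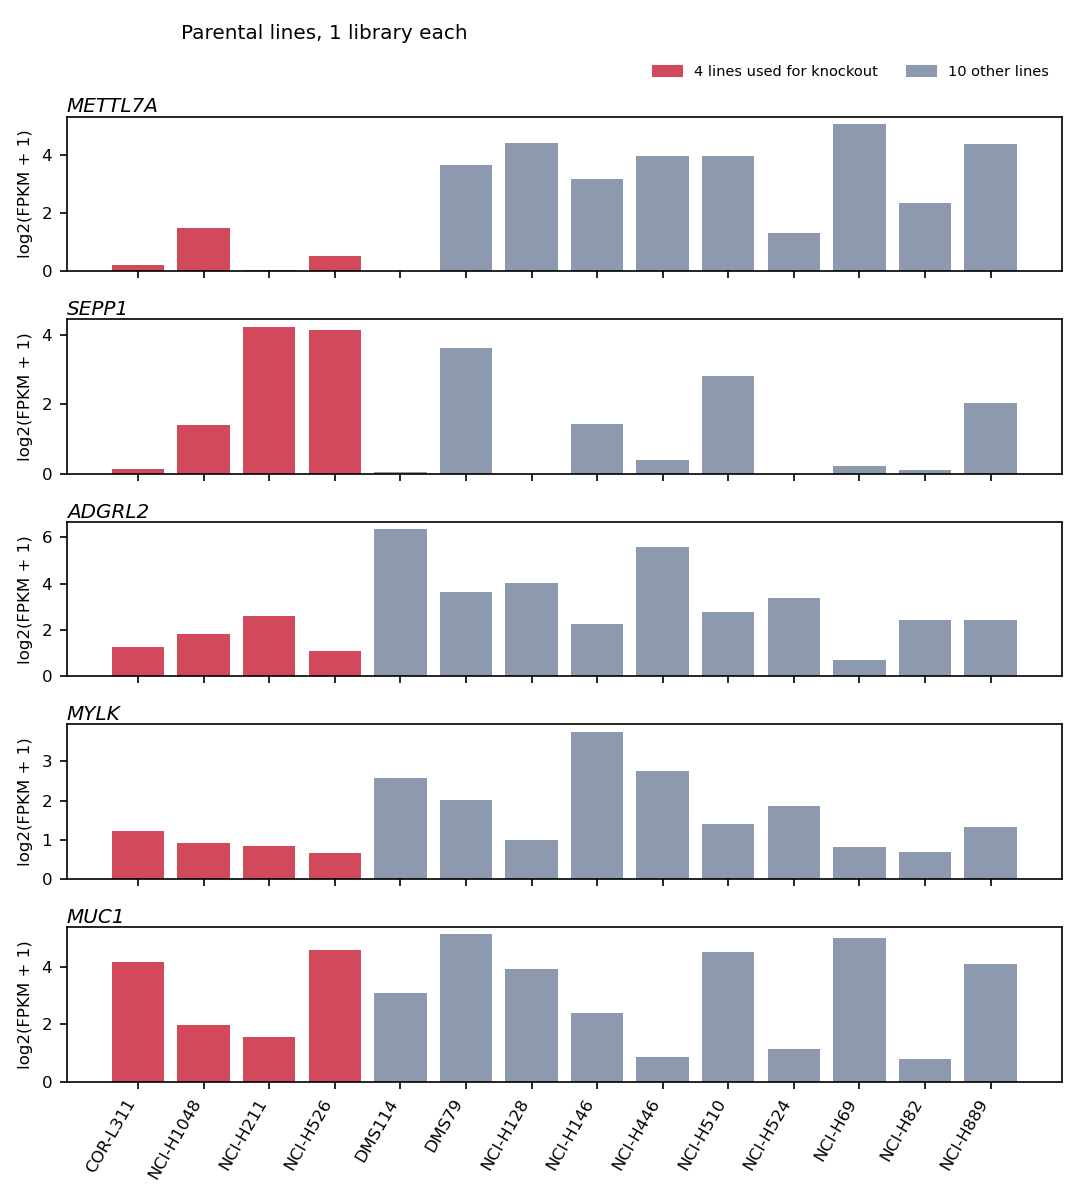
Log2(FPKM + 1) of the 5 genes in 14 parental lines, 1 library each, as bars from 0; red bars are the 4 lines used for knockout and grey bars the 10 others. The red METTL7A bars stand below 8 of the 10 grey ones, and the 2 tallest SEPP1 bars are NCI-H211 and NCI-H526.

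Across the 14 parental libraries the 5 genes did not share a pattern. As a description over libraries that differ in depth, Pearson's r of log2(FPKM + 1) between pairs of them ran from -0.32 (ADGRL2 and MUC1) to 0.53 (ADGRL2 and MYLK). The genes closest to METTL7A were PCSK2, a prohormone convertase (r = 0.94), IGFBP5 (0.92) and SEMA4D (0.89). Those closest to SEPP1 were DEF6 (0.90), EVPL (0.88) and CASP8 (0.86). ADGRL2 was closest to NTAN1, TCEAL4 and IKBIP (0.84, 0.84 and 0.83), MYLK to FIBCD1, NAV3 and PCDH7 (0.87, 0.84 and 0.79), and MUC1 to PHLDB1, MISP and KRTAP5-2 (0.94, 0.90 and 0.86). Of the 11 of these 15 genes that passed the knockout filter, IGFBP5 (mean knockout log2 ratio 2.36) and PHLDB1 (0.48) were higher after sgPOU2F3 in 4 of 4 lines.

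The control guide columns can be set beside parental cells of the same line, as levels from separate tables and without a test. The 5 genes in 4 lines were above their parental value in 14 of 20 cases in sgNeg and in 20 of 20 in sgPOU2F3. The sgPOU2F3 and sgNeg values together chose the genes, so neither count supports anything. How many of all genes lay above their parental value is not given here. METTL7A was above its parental value in sgNeg in 4 of 4 lines, by 11.4-fold in COR-L311 (0.146 to 1.68 FPKM), 6.51-fold in NCI-H211, 3.05-fold in NCI-H526 and 1.36-fold in NCI-H1048. In COR-L311 and NCI-H211 these steps start from 0.146 and 0.0371 FPKM, near 0, so the 11.4-fold and 6.51-fold are imprecise. From sgNeg to sgPOU2F3 the folds in these lines were 4.33 and 6.61. In log2(FPKM + 1), METTL7A in NCI-H211 differed by 0.26 between parental and sgNeg, against a knockout ratio of 1.06. MUC1 went from 2.93 FPKM in parental NCI-H1048 to 9.03 in sgNeg, a difference of 1.35 in log2(FPKM + 1) against the knockout ratio of 0.68 in that line. On that scale it was the 1 case of 20 where the step from parental to sgNeg was at least as large, and METTL7A in COR-L311 stood at 1.22 against 1.62. The genes were chosen for high knockout ratios, and the sgNeg value enters both steps, so this count supports nothing either. In NCI-H211, MUC1 went from 1.97 FPKM in parental cells to 0.599 in sgNeg. Over all genes, the median of sgNeg minus parental was above 0 in each line, at 0.02 to 0.10 on the log2 scale. Between 2.67% and 4.04% of genes were at least 1 higher in sgNeg.

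**Figure D5:**
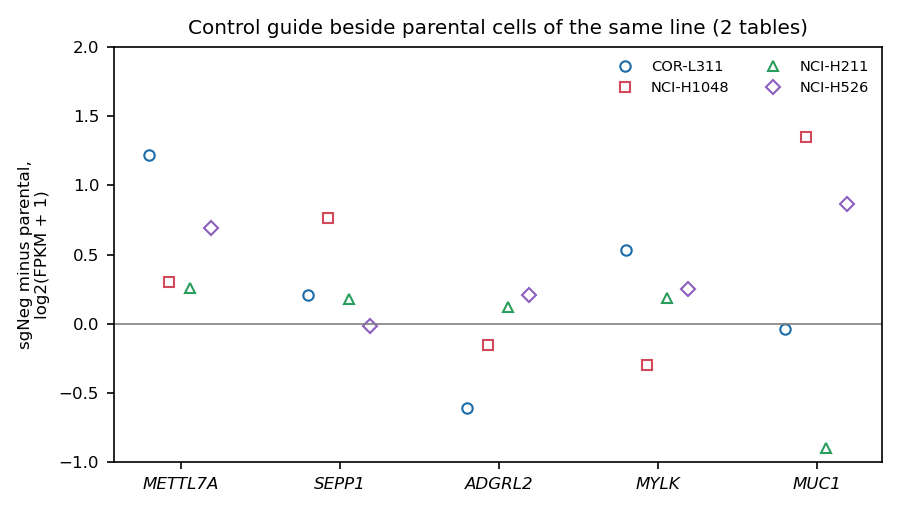
Difference between sgNeg and parental cells of the same line in log2(FPKM + 1) for the 5 genes, 1 open symbol per line, with values from separate tables. METTL7A lies above 0 in all 4 lines, and MUC1 runs from -0.89 in NCI-H211 to 1.35 in NCI-H1048.

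Relatives and partners of the 5 genes were examined as lists. In 7 lists of pathway genes, with the 5 genes left out, 0 genes passed limma's test over all genes, against 0.0161% of all genes tested. At an unadjusted p of 0.05, 579 of the 12387 genes tested were higher and 877 lower, and each list's counts follow. Over all genes tested the median ratio was -0.02.

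Of 18 tested selenoproteins, enzymes of redox control for the most part, 1 was higher and 0 lower at the unadjusted p, and the median log2 ratio was 0.07 (-0.00085 without NCI-H211, 0.14 without COR-L311). SEPW1, a small thioredoxin-like selenoprotein, had a ratio of 0.33 ± 0.08 (SD, n = 4 lines, limma adjusted p = 0.39), higher in 4 of 4 lines. GPX3, the plasma glutathione peroxidase, stood at 0.11 ± 0.67, and GPX4, which reduces lipid peroxides, at -0.22 ± 0.29. The 8 genes of selenium incorporation and uptake had 0 and 0, and a median of -0.09, with SCLY, a lyase that recycles selenocysteine, at -0.19 ± 0.26.

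Among 9 tested latrophilins and ligands, 1 was higher and 1 lower at the unadjusted p. Their median log2 ratio, 0.26, was 0.038 without COR-L311, and the medians of single lines differed in sign (0.43 in COR-L311, 0.29 in NCI-H526, -0.11 in NCI-H1048 and -0.23 in NCI-H211). ADGRL3 stood at 0.57 ± 0.36 (SD, n = 4 lines, limma adjusted p = 0.40; higher in 4 of 4 lines), with 10.4 FPKM in sgNeg and 23.3 in sgPOU2F3 in NCI-H211. The teneurin gene TENM3 stood at -0.39 ± 0.13, lower in 4 of 4 lines. ADGRL1 stood at -0.27 ± 0.54, and ADGRL4 was at most 0.0238 FPKM in the knockout columns.

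In the list of 23 actomyosin genes (median 0.11, and 0.026 without NCI-H211), 1 was higher and 1 lower at the unadjusted p. MYL6, the essential light chain of myosin, stood at 0.65 ± 0.63 and CALM3, a calmodulin gene, at -0.36 ± 0.28. TAGLN, an actin-binding protein of smooth muscle, was at 3.72 FPKM in sgNeg and 50.3 in sgPOU2F3 in NCI-H211, and at 6.78 and 7.22 in COR-L311, 4.01 and 6.33 in NCI-H1048 and 5.26 and 7.69 in NCI-H526. MYLK2, MYLK3 and MYLK4, the other kinases of the family, were at most 1.31 FPKM in the knockout columns and did not pass the filter.

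Of the mucins 2 besides MUC1 could be tested, with 1 higher and 0 lower at the unadjusted p. MUC20, another membrane mucin, stood at 0.92 ± 0.34 (SD, n = 4 lines, limma adjusted p = 0.31), going from 2.33 to 6.13 FPKM in COR-L311, 5.91 to 8.16 in NCI-H1048, 0.513 to 2.15 in NCI-H211 and 3.42 to 8.52 in NCI-H526. MUC6, a secreted gel-forming mucin, stood at -0.11 ± 0.48. In the knockout columns MUC4 was at most 1.44 FPKM and MUC16 at most 0.0102, and in the parental columns at most 6.32 and 0.0212. Of 16 tested enzymes of mucin-type O-glycosylation (median 0.08, and -0.066 without NCI-H211), 2 were higher, GALNT4 (0.60 ± 0.43) and ST6GALNAC2 (1.26 ± 1.33), and 1 lower, GALNT14 (-0.83 ± 0.55), at the unadjusted p.

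In the 17 tested genes of the METTL7 and lipid droplet list the median was -0.01, with 0 higher and 0 lower at the unadjusted p. METTL7B, the paralog of METTL7A, stood at -0.05 ± 0.13, with 9.47 FPKM in sgNeg and 8.53 in sgPOU2F3 in NCI-H211. HILPDA, a lipid droplet protein induced by hypoxia, stood at -0.38 ± 0.46 and ACSL3, an acyl-CoA synthetase, at -0.27 ± 0.26.

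Marker lists of other cell types were read in the 8 knockout columns, to which the levels in this paragraph refer. Neuroendocrine markers (6 genes) summed to 6.52 to 214 FPKM in sgNeg and 1.96 to 276 in sgPOU2F3. NEUROD1, a neuronal transcription factor, was at 0.173 in sgNeg and 13.8 in sgPOU2F3 in COR-L311 and at 0.107 and 11.6 in NCI-H526. NCI-H1048 and NCI-H211 had NEUROD1 listed at 0 in both arms. INSM1, a transcription factor of neuroendocrine cells, was at 50.7 and 165 FPKM in COR-L311 and 80.7 and 138 in NCI-H526, but at 4.90 and 1.46 in NCI-H1048 and 5.93 and 1.24 in NCI-H211. Tuft-like markers (6 genes, POU2F3 among them) summed to 524.5 to 1317 FPKM in sgNeg and 110 to 687 in sgPOU2F3. The 4 YAP1 markers summed to 0.963 to 321 and 1.61 to 712, and the lines differed. YAP1 was at 14.6 and 27.6 in NCI-H1048 and 1.33 and 56.0 in NCI-H211. It was at 0.588 and 0.358 in NCI-H526 and 0.0338 and 0.00911 in COR-L311. CYR61 was at 254 and 486 in NCI-H1048, 1.43 and 463 in NCI-H211, 0.859 and 0.680 in NCI-H526, and 0.194 and 0.241 in COR-L311.

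The summed level of 6 smooth muscle markers was 0.533 to 4.07 FPKM in sgNeg and 0.971 to 10.6 in sgPOU2F3 in the knockout columns, highest in NCI-H211, where CNN1, calponin, stood at 8.26, while MYH11, DES and MYOCD were below 1 in these columns. Hepatocyte markers (5 genes) summed to 0.151 to 1.83 and 0.845 to 2.48, with APOA2, TTR and FGB below 1. Fibroblast markers (7 genes) summed to 0.129 to 10.9 and 0.855 to 16.8, with COL1A2 and PDGFRB below 1. Leukocyte markers (5 genes) summed to 1.57 to 10.8 and 2.23 to 8.82, with PTPRC, CD163 and CD3E below 1 and CD68 the highest, at 6.37 and 6.75 in COR-L311. Endothelial markers (4 genes) summed to 0.0554 to 0.941 and 0.081 to 1.57, with PECAM1, VWF and TEK below 1 and CDH5 listed at 0 in sgNeg and at 1.39 in sgPOU2F3 in COR-L311. The part of these shifts in the values of the 5 genes was not tested.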

How the data were processed

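PolyA RNA of 26 libraries was sequenced. The authors deposited 5 tables of FPKM, 1 for each knockout line and 1 for 14 parental lines (the labels name the parental table as RPKM, its file as FPKM). The submitters' processing notes name TopHat2, Cufflinks, Cuffdiff and hg19, while roles, versions, annotation and scaling between columns are not given in the sources used here. How the 2 guides were combined into 1 column is not stated, so fits on single guides could not be run. Values were taken as log2(FPKM + 1). Genes with fewer than 4 columns at 1 FPKM or above were left out. limma 3.58.1 in R 4.3.3, with a variance trend, was fitted over all genes: line and arm in the knockout tables (8 columns, 3 residual degrees of freedom), and 4 against 10 lines in the parental table. Calls used a Benjamini-Hochberg adjusted p of 0.05 over all genes tested. The fitting code was tested on simulated data. Depth was estimated from FPKM steps and GENCODE transcript lengths on GRCh38, another build than that of the tables. Other pseudocounts, filters, scalings and left-out lines were tried.

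The 5 genes, the 7 pathway lists and the 8 marker lists were chosen with earlier results of these data known. Besides the 5 genes and POU2F3, the text names up to 4 genes per list with the smallest p, the nearest paralogs, the 3 genes most correlated with each of the 5 over the parental libraries, and the 5 others with the largest smallest ratio, of which 1 is not reported here. CCDC152 was named for its overlap with SEPP1, and marker genes for their levels, such as staying below 1 FPKM, after their values were seen.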

Additional observations from a re-analysis of the deposited data

Results flagged for a closer look

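Among 15 groups of 4 or 10 values of the 5 genes, 1 held a sample far from the others: the SEPP1 knockout log2 ratio of COR-L311, 2.61, against 1.02 to 1.28 in the other 3 lines. Its gap to the nearest line was 0.835 of the whole range, just above Dixon's critical value for 4 samples, and chance gives such a value in about 1 in 20 groups. The control level behind it was 0.273 FPKM, an estimated 2.34 to 6.68 fragments.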

How the results depend on the processing

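The 5 knockout log2 ratios were above 0 in 47 of 47 alternatives and moved by less than the SD between lines in 45; with a pseudocount of 0.1, ADGRL2 stood at 1.57 and MYLK at 1.62. With the filter at an FPKM of 5, METTL7A, ADGRL2 and MYLK were not tested in the knockout fit, nor MYLK in the parental one. The count of genes called higher after knockout, 2, was 0 with a pseudocount of 0.1, no filter or no variance trend, 1 with quantile normalization, and 0 to 1 without a line (0 without COR-L311, NCI-H1048 or NCI-H526). In the parental comparison the 28 higher genes became 12 to 36 on leaving out 1 of the 4 lines (14 without COR-L311, 12 without NCI-H526). The 5 lower genes became 3 to 9 (3 without COR-L311, 8 without NCI-H1048, 9 without NCI-H526), 18 without DMS114, 13 at the pseudocount of 0.1 and 3 unfiltered. METTL7A passed in 1 of 11 alternatives, without DMS114 (-3.01), where 0.137% of the genes tested passed as lower. The MUC1 difference changed sign, to 0.085 with a pseudocount of 0.1 and 0.011 with quantile normalization, and ran from -0.52 to 0.49 without 1 of the 4 lines. Of 42 alternatives for list medians, 39 moved by less than the spread between lines, which is wide beside the medians; the 2 mucins had 0.74 without COR-L311, 0.72 without NCI-H211 and 0.0058 with no filter, against 0.40. The causes were not tested. For the guide numbers, no paired analysis was possible because the 2 guides of a line share 1 deposited column, while the knockout fit does pair the arms within each line. Depth limits values under about 1 FPKM.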
